A study of Mus musculus with 250 samples.

Results

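Fos-positive astrocytes, cells with Fos at 10 CPM or more (a gene's reads divided by all reads of the cell, scaled to a common total of 1000000), made up 60 of 250 brain astrocytes (24.0%, exact binomial 95% interval 18.8 to 29.8%). They were set against the 95 cells (38.0%) that had no Fos read. The other 95 cells had 1 to 4 Fos reads and lay under 10 CPM, and they entered neither side. Cells of both groups were chosen by their measured Fos reads, so Fos values are given as a description and carry no test.

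The cells came from the brain of adult C57BL/6 mice about 3 months old with the genotype SM22-Cre;Rosa26-stop-tdTomato, and every cell shared this genotype with no treatment named. In this line the SM22 (Tagln) promoter, active in smooth muscle, drives Cre, which switches on red tdTomato by deleting a stop. The sources used here do not give the gate by which astrocytes were taken from it. Single cells were sorted into wells and read as full-length cDNA with the Smart-seq2 method, which has no molecular identifiers. Animals are not named in the labels, so there are no known replicates and the comparisons below are descriptions without p-values. The cells carry 1 of 2 name prefixes, here plate 2 for 162 cells and plate 3 for 88 cells. Log2 ratios were taken within a plate, and calls asked for the same direction on both. Counts and shares of cells given without a plate pool the 2 plates. Plate 3 gave 31 of the 60 Fos-positive cells and 17 of the 95 Fos-negative cells, so pooled shares mix plate with Fos group.

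Fos is an immediate early gene, one that a cell transcribes within minutes of a stimulus without making new protein first. Signals through calcium, cyclic AMP and MAP kinases reach its promoter through CREB, serum response factor and ternary complex factors. The Fos protein pairs with Jun proteins to form AP-1, a transcription factor, and it is widely used as a mark of recently stimulated neurons. In astrocytes Fos is known to respond to neurotransmitters, growth factors, injury and handling of the tissue. Other immediate early genes code for transcription factors of the Egr, Nr4a and Klf families, for AP-1 partners and for proteins that end the response, such as the phosphatase Dusp1 and the RNA decay factor Zfp36.

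Promoters of Fos and of the 4 immediate early genes that passed a 2-fold difference on both plates are shown because these letters are what inducible factors read. The bases are the 250 before the RefSeq transcription start (GRCm38.p6), written 5′ to 3′ on the gene's strand. Capitals mark TGACG in Fos, a core of the CREB site, a CArG box (the site of serum response factor) in Zfp36, and TGACGTCA, the full CREB palindrome that holds TGACG, in Ppp1r15a and Btg2. The Klf6 window held none of the motifs searched and has no capitals.
Fos: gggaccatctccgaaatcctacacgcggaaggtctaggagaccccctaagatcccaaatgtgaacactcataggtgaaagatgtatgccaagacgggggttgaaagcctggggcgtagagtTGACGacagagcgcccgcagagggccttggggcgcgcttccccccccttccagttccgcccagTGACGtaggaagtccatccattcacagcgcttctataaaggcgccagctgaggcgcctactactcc
Klf6: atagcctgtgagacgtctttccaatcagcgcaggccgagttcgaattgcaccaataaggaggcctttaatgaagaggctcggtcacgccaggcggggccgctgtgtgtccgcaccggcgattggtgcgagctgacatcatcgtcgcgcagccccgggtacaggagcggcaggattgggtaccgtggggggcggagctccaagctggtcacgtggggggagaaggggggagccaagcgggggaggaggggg
Zfp36: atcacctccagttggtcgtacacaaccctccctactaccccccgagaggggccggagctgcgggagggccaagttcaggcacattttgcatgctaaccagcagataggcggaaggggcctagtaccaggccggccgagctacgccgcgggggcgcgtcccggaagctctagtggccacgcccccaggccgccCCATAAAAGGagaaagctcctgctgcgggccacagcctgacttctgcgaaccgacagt
Ppp1r15a: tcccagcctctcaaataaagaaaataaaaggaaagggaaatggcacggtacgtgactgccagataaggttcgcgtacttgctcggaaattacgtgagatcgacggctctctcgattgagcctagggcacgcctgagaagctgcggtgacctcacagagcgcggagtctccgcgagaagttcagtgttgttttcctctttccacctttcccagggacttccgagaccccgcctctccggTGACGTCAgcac
Btg2: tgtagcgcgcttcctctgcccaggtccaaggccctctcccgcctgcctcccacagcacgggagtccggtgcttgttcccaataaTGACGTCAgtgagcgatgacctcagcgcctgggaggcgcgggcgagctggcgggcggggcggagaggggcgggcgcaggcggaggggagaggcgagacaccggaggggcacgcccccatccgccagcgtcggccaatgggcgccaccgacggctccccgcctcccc
The Fos window is chr12:85473640-85473889 on the plus strand, and its 2 TGACG matches begin 129 and 66 bases before the start. The Klf6 window is chr13:5861239-5861488 on the plus strand. The Zfp36 window is chr7:28379229-28379478 on the minus strand, with the CArG box 58 bases before the start. The Ppp1r15a window is chr7:45526269-45526518 on the minus strand, with the palindrome 12 bases before the start. The Btg2 window is chr1:134079156-134079405 on the minus strand, with the palindrome 166 bases before the start. Both strands were searched. Of the 70 genes in the immediate early lists, Fos included, 52 matched the RefSeq table. TGACG was in the windows of 30 of the 52 (57.7%), against 19.8% of 27025 genes. TGACGTCA was in 6 (11.5%, against 1.77% of all genes) and the CArG box in 3 (5.77%, against 1.62%). The AP-1 site TGANTCA was in 3 (5.77%, against 7.82%). These matches are letters in a window and say nothing of binding in these cells. Sites further than 250 bases before the start were not searched. A window without a CArG box, such as that of Fos, thus does not mean that the gene lacks one.

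The Fos level was low in most positive cells and high in a few. Fos lies on chromosome 12 at 85473890 to 85477273 (GRCm38). The 60 Fos-positive cells had a lowest level of 10.2, a median of 25.7 and a highest of 1961 CPM. In reads, they had 2 to 422 Fos reads with a median of 7, and 1788 in all. Fos reached 50 CPM in 20 cells and 100 CPM in 12 cells (4.80%). The cells just inside the limit had 10.2, 10.7, 11.2 and 11.9 CPM, from 3 to 5 reads. Those just outside had 9.85, 9.43, 9.39 and 9.32 CPM, from 2 to 4 reads. A level of 10 CPM is 1.02 reads in the shallowest cell and 5.65 in the deepest, so the limit separates cells by very few reads.

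The share of Fos-positive cells was higher on plate 3. It was 29 of 162 cells on plate 2 (17.9%, 12.3 to 24.7%) and 31 of 88 on plate 3 (35.2%, 25.3 to 46.1%), and the intervals, which cover counting error alone, do not overlap. Any Fos read was found in 51.9% of the cells of plate 2 and in 80.7% of those of plate 3. With every cell thinned to 100000 reads, these shares were 36.4% and 53.4%. Among positive cells the median level was 27.1 CPM on plate 2 and 23.2 CPM on plate 3, and the mean was 155 and 62.1 CPM. These cells were cut at 10 CPM on both plates, so their medians cannot say whether the plates differ in level. What else differs between the plates is not stated in the labels.

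**Figure D1:**
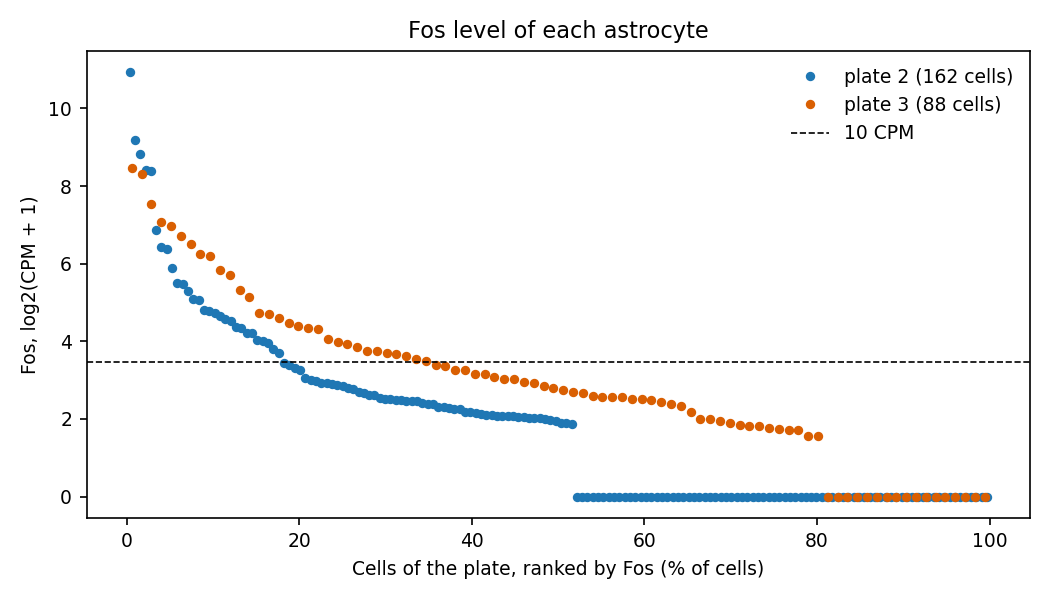
Fos level of each cell, log2(CPM + 1), against its rank among the cells of its plate in percent, for plate 2 (162 cells, blue) and plate 3 (88 cells, orange); the dashed line is 10 CPM. Cells at 0 have no Fos read, and 17.9% of the cells of plate 2 and 35.2% of those of plate 3 lie above the line.

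Depth and identity were close in the groups on plate 2 and less so on plate 3. Over all 250 cells the total was 102161 to 564958 reads, with a median of 282290. The median Fos-positive cell had 258885 reads on plate 2, against 251052 in Fos-negative cells. On plate 3 the values were 331050 and 408219, so cells with no Fos read were the deeper ones there. Positive cells had slightly more genes at 10 CPM, with medians of 2483 against 2372 on plate 2 and 2624 against 2526 on plate 3. Thinned to 100000 reads, the medians of genes with a read were 2629 against 2542.5 and 2798 against 2673. Every cell of both groups had at least 12 of the 16 astrocyte markers at 10 CPM. Cells with 3 or more markers of another cell type were 8 of 29 and 10 of 31 among Fos-positive cells, and 24 of 78 and 4 of 17 among Fos-negative cells, on plates 2 and 3. The part of depth and of other cells' RNA in the differences below was not tested beyond the alternatives given.

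No other immediate early gene was called higher in Fos-positive cells, but calls were rare among all genes. A gene was called when the ratio of its mean CPM (after adding 1 CPM) was at least 2-fold in 1 direction on both plates and no single cell held 25% or more of the sum of the higher group on either plate. Of the 69 other genes in the immediate early lists, 62 had at least 1 read and 30 passed the filter, a mean of 5 CPM on both plates. Of the 9563 genes that passed, 9 (0.0941%) were called higher and 3 (0.0314%) lower, and the count among immediate early genes was 0 in each direction. With calls this rare, 0 among 30 genes does not set them apart from the rest. A gene detected in few cells can also hardly meet the condition on single cells. Without the condition on single cells, 397 genes (4.15%) were at least 2-fold higher on both plates and 469 (4.9%) lower, of which immediate early genes were 3 higher (Klf6, Zfp36 and Ppp1r15a) and 1 lower (Btg2). Without the cell of highest Fos level as well, these counts were 387 (4.05%) and 485 (5.07%) of all genes, and 2 (Klf6 and Zfp36) and 1 (Btg2) of the immediate early genes, while the log2 ratio of Ppp1r15a on plate 2 went from 1.59 to 0.85. The median log2 ratio was 0.07 over the 62 genes with reads and 0.32 over the 30 that passed, beside 0.01 over all genes that passed. Of the 30, 12 were higher on both plates (40.0%, against 25.1% of all genes) and 3 lower (10.0%, against 24.9%). Genes low elsewhere could pass the filter through Fos-positive cells, so these shares and the counts of higher genes support nothing.

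Among the other AP-1 subunits, transcripts were scarce in Fos-positive cells too. Of 12 members, 4 (Fosl1, Batf, Batf3 and Maff) had no read in any cell, and Jun alone passed the filter. Jun, the main partner of Fos, was detected (at 10 CPM or more) in 7 of 60 Fos-positive and 5 of 95 Fos-negative cells. Its mean was 22.1 CPM in Fos-positive and 12.0 CPM in Fos-negative cells of plate 2, and 27.8 and 0.81 CPM on plate 3. The median was 0 in all 4 of these sets, with highest cells of 562, 291, 596 and 4.73 CPM. A single cell held 87.7% of the Fos-positive sum on plate 2, and without it the log2 ratio there went from 0.84 to -1.76. Jund was detected in 5 and 8 cells and Junb in 3 and 4. Fosb, the closest relative of Fos, did not reach 10 CPM in any cell of either group, although single reads occurred. Fos reads thus came with few reads of other AP-1 subunits at this depth.

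The other immediate early transcription factors ranged from some detected in a larger share of Fos-positive cells to others with no read at all. Klf6, a zinc finger factor of injury and growth responses, was detected in 11 of 60 Fos-positive (18.3%) and 6 of 95 Fos-negative cells (6.32%). On plate 2 its mean was 88.7 CPM against 16.8 CPM (log2 ratio 2.34) and on plate 3 it was 16.8 CPM against 6.76 CPM (1.20). The highest Fos-positive cells held 33.8% and 61.9% of these sums. Egr1, a zinc finger factor induced with Fos in many cells, was detected in 4 and 5 cells and did not pass the filter. Myc was detected in 3 and 2 cells. Egr4, Nr4a3 and Npas4, which mark active neurons, had no read in any cell. Bhlhe40, a repressor tied to the clock and to hypoxia, was common in both groups: 38 of 60 Fos-positive and 50 of 95 Fos-negative cells. Its log2 ratio was 0.38 on plate 2 and 1.78 on plate 3, where the mean was 330 CPM against 95.2 CPM. Id2 and Id3, inhibitors of helix-loop-helix factors, had log2 ratios of 0.52 and 0.22, and of 0.94 and 0.00, on plates 2 and 3, so neither passed 2-fold. Id3 was detected in 33 of 60 Fos-positive (55.0%) and 29 of 95 Fos-negative cells (30.5%), a gap of 28.2 points on plate 2 and 7.78 on plate 3.

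By count, more effector and feedback genes were higher than lower, but the filter can favour this. Of 36 such genes 22 passed the filter, 8 (36.4%) were higher and 3 (13.6%) lower on both plates, against 25.1% and 24.9% of all genes. The filter took all cells, so Zfp36, Ppp1r15a and Bdnf entered with the help of Fos-positive cells, and the count supports nothing. On plate 3 their means were 1.93, 0.98 and 0 CPM in Fos-negative cells and 6.04, 3.72 and 0.53 CPM in cells between. Zfp36, which brings about decay of mRNAs with AU-rich ends, was detected in 8 Fos-positive and 2 Fos-negative cells, with means of 44.2 CPM against 4.96 CPM (log2 ratio 2.92) on plate 2 and 7.72 CPM against 1.93 CPM (1.57) on plate 3. Ppp1r15a, which restores translation after stress by guiding a phosphatase to eIF2, was detected in 6 and 4 cells, with means of 58.5 CPM against 18.8 CPM and 10.5 CPM against 0.98 CPM. These ratios rested on few cells: the highest cell held 58.0% of the Zfp36 sum and 42.8% of the Ppp1r15a sum on plate 2. Dusp1 was detected in 7 and 7 cells. Bdnf, a neurotrophin, was detected in 7 and 2 cells, 5 of the former on plate 3, where no Fos-negative cell had a read. Arc, which acts at synapses, and the prostaglandin enzyme gene Ptgs2 were detected in 0 cells of either group.

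Btg2, an antiproliferative cofactor of mRNA deadenylation, went the other way. It was detected in 4 of 60 Fos-positive cells and 19 of 95 Fos-negative cells. Its mean was 18.6 CPM against 80.7 CPM on plate 2 (log2 ratio -2.06) and 28.7 CPM against 196 CPM on plate 3 (-2.73). It was not called, because 1 Fos-negative cell with 1612 CPM held over 25% of the sum on plate 3. Its promoter holds the full CREB palindrome printed above, as does that of Ppp1r15a, whose mean was higher in Fos-positive cells on both plates.

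**Figure D2:**
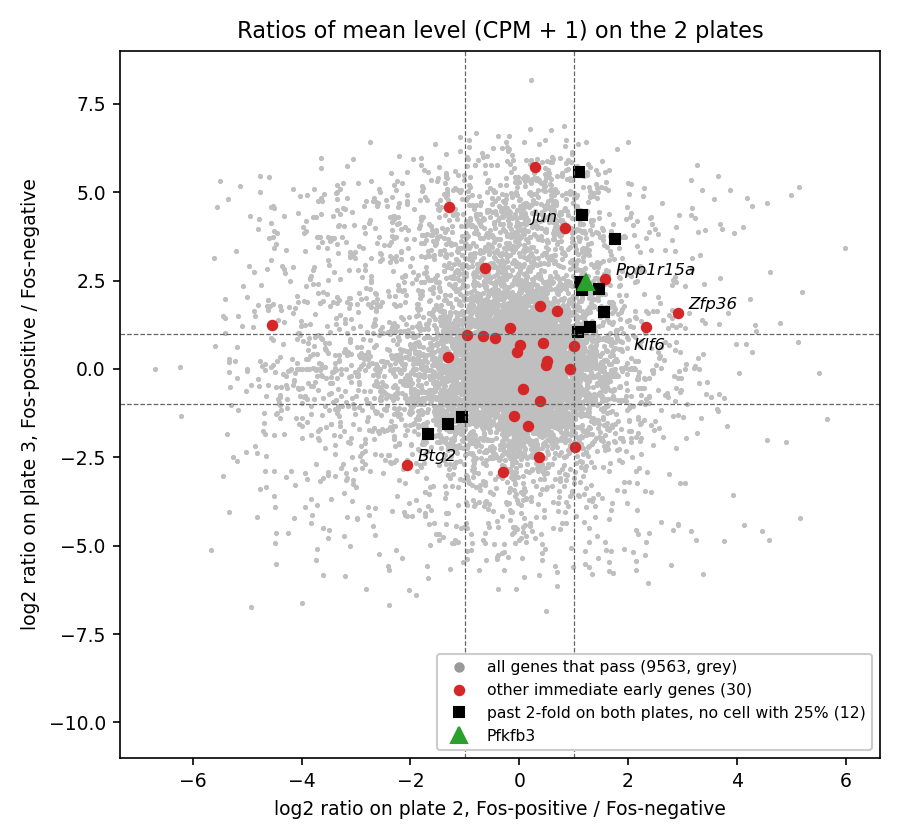
Log2 ratio of mean level (CPM + 1), Fos-positive over Fos-negative, on plate 2 (x axis) and plate 3 (y axis) for 9563 genes (grey), with the 30 other immediate early genes that passed in red, the 12 called genes as black squares and Pfkfb3 as a green triangle; dashed lines are 2-fold. Klf6, Zfp36 and Ppp1r15a lie past 2-fold higher on both plates and Btg2 past 2-fold lower, inside a wide grey cloud.

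The number of other immediate early genes in a cell differed little between the groups. Fos-positive cells had a median of 8 such genes at 10 CPM on plate 2 and 9 on plate 3, and Fos-negative cells 7 and 8. The ranges were 4 to 21 and 2 to 13. Thinned to 100000 reads, with any read counted, the medians were 10 and 12 in positive cells, 9 and 11 in cells between and 9 and 10 in negative cells. The 20 cells with Fos of 50 CPM or more had a median of 8 on each plate, which is no higher than the medians of 8.5 and 9 in cells with Fos from 10 to under 50 CPM. So among positive cells a higher Fos level did not go with a longer list of immediate early genes at 10 CPM. Some list members were common whatever the Fos level. Id2 was detected in 90.0% of Fos-positive and 90.5% of Fos-negative cells, and Spry2 in 91.7% and 88.4%. Such genes fill part of the count, which therefore says little of the rarer members.

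**Figure D3:**
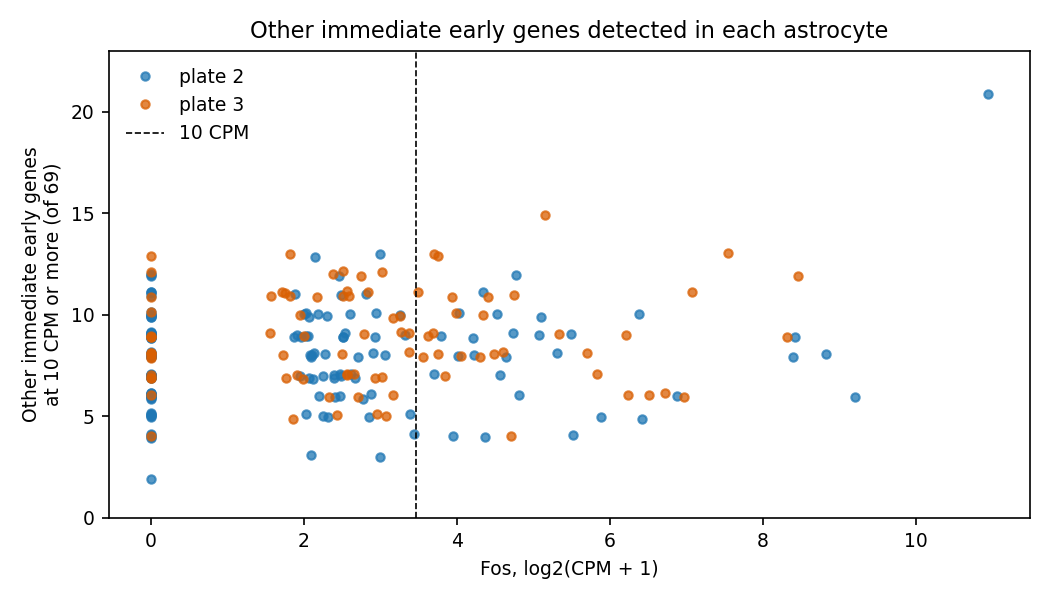
Number of the 69 other immediate early genes at 10 CPM or more in each cell (y axis, points shifted slightly to keep them apart) against its Fos level, log2(CPM + 1) (x axis), with plate 2 in blue and plate 3 in orange; the dashed line is 10 CPM. The cell of highest Fos level has 21 such genes, and the other 249 cells have 2 to 15.

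One cell of plate 2 held a broad set of immediate early transcripts. It had 422 Fos reads (1961 CPM), with 587 CPM in the next cell. It also had Jun at 562, Egr1 at 205, Klf6 at 869, Myc at 363, Zfp36 at 744 and Ppp1r15a at 725 CPM. With 21 other immediate early genes at 10 CPM it stood above the maximum of 15 in the other 249 cells, and their summed level was 11564 CPM against at most 7601 CPM. It was the highest of all cells, at 100 CPM or more, for 6 of the 69 genes (8.70%), beside 53 of the 16366 genes with reads other than Fos (0.324%). Its 215149 reads and 2896 genes lay inside the range of its plate, and it had all 16 astrocyte markers. Gfap, the filament protein of reactive and fibrous astrocytes, was at 4471 CPM there, with 1025 CPM in the next cell. Socs3, a feedback inhibitor of cytokine signalling, was at 107 CPM and Gadd45b, a stress sensor, at 112 CPM. This cell was picked out after its values were seen.

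The other cells of high Fos did not carry that set as a whole. The 11 other cells with Fos of 100 CPM or more had 6 to 13 immediate early genes, with a median of 8. Of these, 9 had none of Jun, Egr1, Klf6, Zfp36 and Ppp1r15a at 10 CPM. The 5 genes were named from the cell of highest Fos after its values were seen, so their absence elsewhere supports nothing. Other genes of that cell did recur. Cyr61 was at 344 CPM in it and at 224 CPM in the eighth cell, and Myc was at 42.3 CPM in the third. The cell with the second highest Fos, 587 CPM, had Ier5 at 290 CPM and Cyr61, a matrix protein gene, at 333 CPM, and no read of Jun, Egr1, Klf6, Zfp36 or Ppp1r15a. The fourth cell, with Fos at 350 CPM, had Ppp1r15a at 130 CPM and Jun at 10.3 CPM. Of these 11 cells, 7 had Bhlhe40 and 5 had Id3 at 10 CPM, genes that were also common in Fos-negative cells, and their median of 8 immediate early genes was close to the medians of 7 and 8 in Fos-negative cells.

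**Figure D4:**
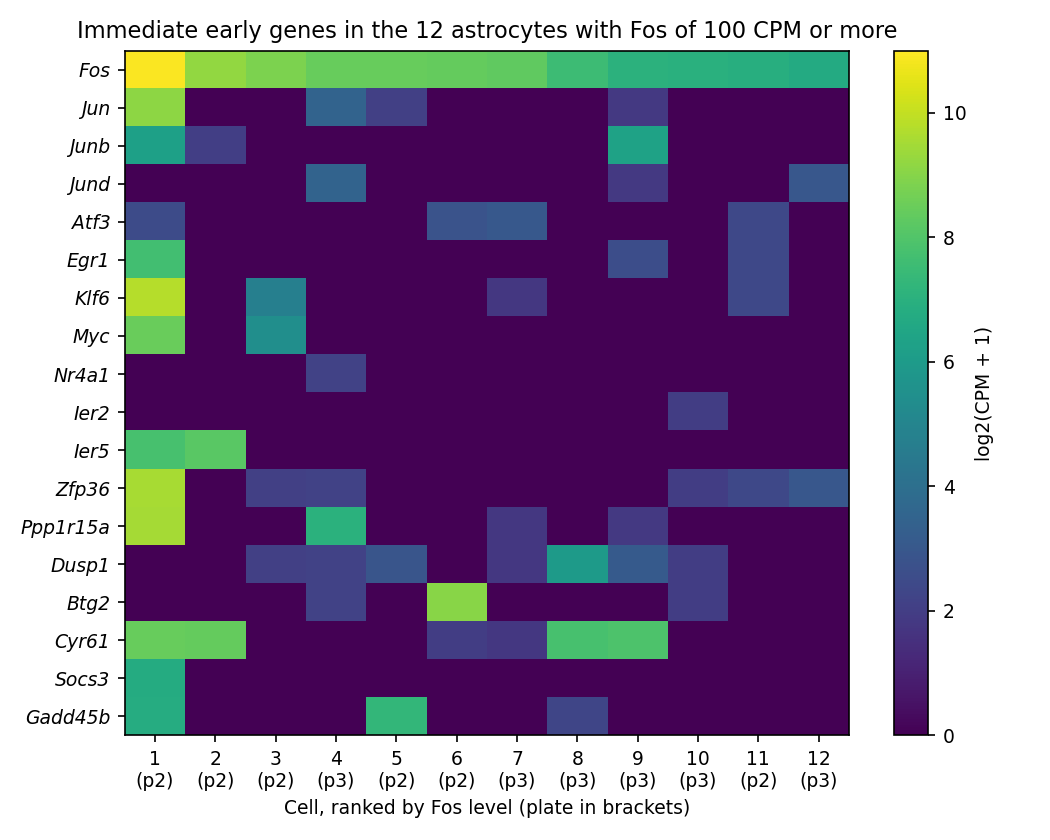
Level, log2(CPM + 1) as colour, of Fos and 17 other immediate early genes (rows) in the 12 cells with Fos of 100 CPM or more (columns, ranked by Fos, plate in brackets). The first column holds most of the genes shown, and the other 11 columns hold fewer. Bhlhe40 and Id3 are not among the rows.

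Counted together, these 5 genes were found in more of the Fos-positive cells. The set was chosen after the values were seen, so the counts describe the cells and support nothing. At least 1 of the 5 was detected in 24 of 60 Fos-positive cells (40.0%, 27.6 to 53.5%), 20 of 95 cells between (21.1%) and 21 of 95 Fos-negative cells (22.1%, 14.2 to 31.8%). In the same order, the shares were 44.8%, 18.2% and 25.6% on plate 2 and 35.5%, 25.0% and 5.88% on plate 3. At least 2 were detected in 8 of 60 (13.3%, 5.94 to 24.6%), 3 of 95 (3.16%) and 1 of 95 (1.05%, 0.0266 to 5.73%). The 8 cells were 3 on plate 2 and 5 on plate 3. Most Fos-positive cells, 36 of 60, had none of the 5.

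Pfkfb3 ranked first of all genes tested by the smaller of its plate gaps in detection, the share of Fos-positive cells minus that of Fos-negative cells. It makes the main allosteric activator of phosphofructokinase and so speeds up glycolysis, and it belongs to the glycolysis list. It lies on chromosome 2 at 11471433 to 11554077 (GRCm38). Pfkfb3 was detected in 43 of 60 Fos-positive cells (71.7%, 58.6 to 82.5%) and 36 of 95 Fos-negative cells (37.9%, 28.1 to 48.4%). The 95 cells between had a share of 50.5% (40.1 to 60.9%). By plate, the shares in negative, between and positive cells were 39.7%, 47.3% and 72.4% on plate 2 and 29.4%, 55.0% and 71.0% on plate 3. Because the gene is described here for its gap between the outer groups, a middle share in the cells between supports nothing. The gap was 32.7 points on plate 2 and 41.6 on plate 3, which gives rank 1 of 9563 genes by the smaller gap. On plate 2 alone Nucb1 had a larger gap, 34.3 points. This ranking was added after values had been seen. At 100000 reads per cell, with any read counted, the shares were 70.0% and 43.2%.

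The level of Pfkfb3 was also higher, but it includes cells without a read and so rises with the share. It is not a separate result. On plate 2 it had a lowest, median and highest value of 0, 127 and 1623 CPM in Fos-positive cells and 0, 3.45 and 646 CPM in Fos-negative cells. On plate 3 these were 0, 66.5 and 777 CPM against 0, 0 and 221 CPM. The groups overlapped, since both held cells without a read. Means were 181 against 76.2 CPM on plate 2 (log2 ratio 1.23) and 179 against 32.0 CPM on plate 3 (2.45). The gene was not called, because 1 cell held 31.0% of the Fos-positive sum on plate 2.

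The glycolysis and glycogen list as a whole was near the background. Of 23 genes 20 passed the filter, 5 (25.0%) were higher and 6 (30.0%) lower on both plates, against 25.1% and 24.9% of all genes, and the median log2 ratio was -0.04. Pfkfb3 was the member past 2-fold on both plates. Ldha, a lactate dehydrogenase subunit, was detected in 41 of 60 (68.3%) and 39 of 95 cells (41.1%), with gaps of 15.4 and 33.6 points and log2 ratios of 0.15 and 0.87. Pygm, a glycogen phosphorylase, was detected in 75.0% and 67.4%, and Ppp1r3c, which targets a phosphatase to glycogen, in 45.0% and 46.3%. Gys1, a glycogen synthase, was detected in 16.7% and 26.3%, and Slc16a1, a lactate transporter, in 28.3% and 40.0%, lower on both plates.

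**Figure D5:**
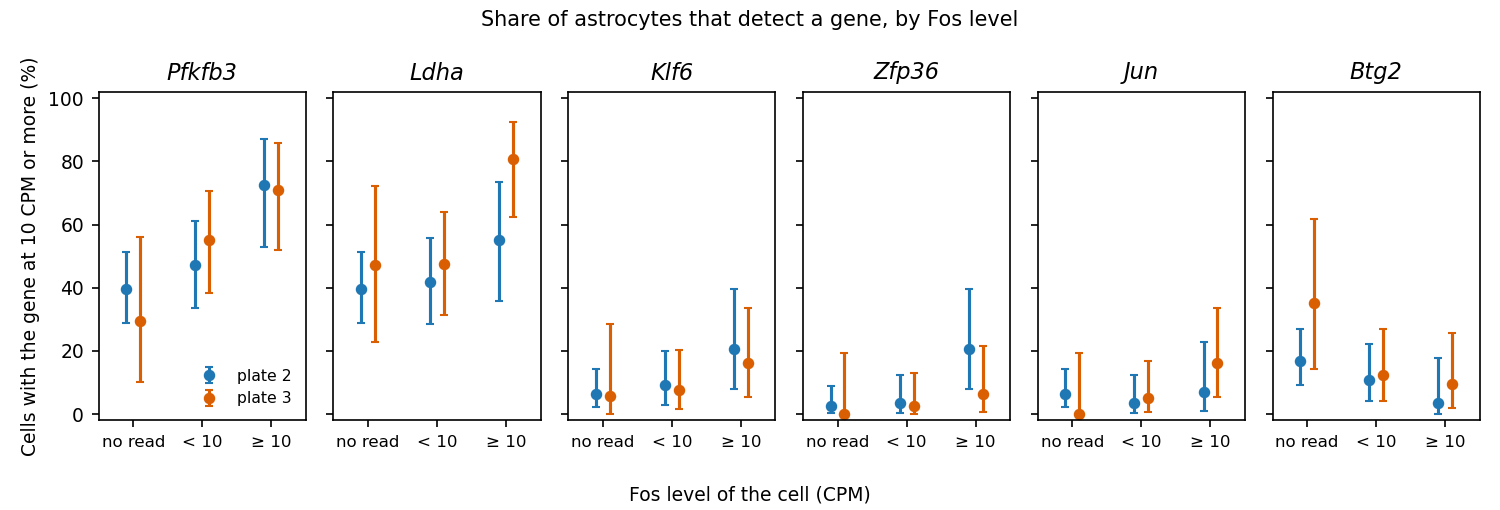
Share of cells with a gene at 10 CPM or more (y axis, percent, with exact binomial 95% intervals) in cells with no Fos read, with Fos under 10 CPM and with Fos of 10 CPM or more (x axis), for plate 2 (blue) and plate 3 (orange). Pfkfb3 goes from 39.7% and 29.4% in cells without Fos to 72.4% and 71.0% in Fos-positive cells. Klf6 goes from 6.41% and 5.88% to 20.7% and 16.1%, and Zfp36 from 2.56% and 0% to 20.7% and 6.45%. Jun goes from 6.41% and 0% to 6.90% and 16.1%, and Btg2 is less frequent in Fos-positive cells.

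The 9 genes called higher came from varied functions. Gatsl3, listed as Castor1 in the annotation, codes for an arginine sensor of the mTORC1 pathway. It was detected in 19 Fos-positive and 12 Fos-negative cells, with means of 138 against 40.0 CPM on plate 2 (log2 ratio 1.76) and 86.0 against 5.86 CPM on plate 3 (3.66). Slc12a9, of the cation-chloride cotransporter family, was the most frequent, in 31 and 34 cells, with medians of 251 CPM and 0 in Fos-positive and Fos-negative cells of plate 2. Its log2 ratios were 1.30 and 1.18. Atp6v0a2, a subunit of the vacuolar proton pump, was detected in 22 and 18 cells with log2 ratios of 1.46 and 2.27.

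The other 6 were Fgfr1op2 (21 against 13 cells), Dmtf1, a Myb-like transcription factor (23 against 22), Setd5, a SET domain protein of chromatin (27 against 27), Vash1, a tubulin carboxypeptidase (19 against 18), Tmem51 (17 against 13) and Lpin2, a phosphatidate phosphatase (19 against 22). Since the Fos-positive group is the smaller, these are larger shares of it. Their log2 ratios ran from 1.08 (Lpin2) to 1.56 (Fgfr1op2) on plate 2 and from 1.03 (Lpin2) to 5.56 (Tmem51) on plate 3, where the Fos-negative cells held only 3 Tmem51 reads. Without the cell of highest Fos, Setd5 and Lpin2 fell under 2-fold on plate 2, with log2 ratios of 0.95 and 0.99, and in Fgfr1op2 a single cell then came to hold just over 25% of the sum. That left 7 genes higher, of which 6 were among the 9.

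The 3 genes called lower were G3bp2, Gsta4 and Tmsb4x. G3bp2, a stress granule protein, was detected in 14 Fos-positive and 33 Fos-negative cells, with means of 35.9 against 117 CPM on plate 2 (log2 ratio -1.67) and 60.6 against 221 CPM on plate 3 (-1.85). Gsta4, a glutathione transferase for lipid aldehydes, was detected in 23 and 45 cells, with log2 ratios of -1.32 and -1.57. Tmsb4x, an actin-binding thymosin, was detected in 37 and 66 cells, with log2 ratios of -1.05 and -1.36. Its value is uncertain because it has near-identical copies elsewhere in the genome. These 12 genes are few against the scatter of the plates: 885 genes passed 2-fold in opposite directions on plates 2 and 3.

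The machinery that reads signals into Fos was near the background of calls. Of 26 upstream regulators, such as CREB, serum response factor and MAP kinases, 23 passed the filter, 0 were called, 4 (17.4%) were higher and 7 (30.4%) lower on both plates, against 25.1% and 24.9% of all genes, and the median log2 ratio was -0.16. The kinase gene Rps6ka3 was past 2-fold lower, from 1 Fos-positive and 3 Fos-negative cells. Among 30 receptor and calcium release genes 27 passed and 0 were called, with a median of -0.01. Adra1a, the receptor through which noradrenaline raises astrocyte calcium, was past 2-fold higher, but in 4 cells against 1.

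Stress and reactive lists varied gene by gene. Of 18 heat shock and unfolded protein genes 14 passed, 0 were past 2-fold in either direction, 4 (28.6%) were higher and 7 (50.0%) lower on both plates, against 25.1% and 24.9% of all genes, and the median was -0.28. Hspa1a, an inducible heat shock protein gene, was detected in 0 Fos-positive cells and 1 Fos-negative cell. Of 22 reactive astrocyte genes 7 passed. Gfap was past 2-fold higher (log2 ratios 2.64 and 1.38, 11 against 9 cells), and without the cell of highest Fos its ratio on plate 2 was -0.05. Serpina3n, a protease inhibitor of reactive astrocytes, had log2 ratios of -1.91 and -0.01. Of 12 glucocorticoid response genes that passed, 0 were past 2-fold. Of 16 clock genes Arntl was past 2-fold higher, in 13 against 13 cells, and of 17 cholesterol synthesis genes that passed 0 were.

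Astrocyte markers and regional markers were close in the groups. All 16 astrocyte markers passed, with a median log2 ratio of 0.08, 9 higher and 3 lower on both plates, and Gfap was the one past 2-fold. Sox9, a glial transcription factor, had 0.40 and 0.76. All 8 markers of astrocytes outside the telencephalon passed, with a median of 0.20 and 0 past 2-fold. Of 6 telencephalic markers 3 passed, and Nr2e1, a nuclear receptor gene, was past 2-fold lower (8 against 20 cells).

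Markers of other cells were found in both groups, and the oligodendrocyte markers did not go 1 way. The median summed level of the oligodendrocyte markers was 697 and 546 CPM in Fos-positive cells on plates 2 and 3. In Fos-negative cells it was 952 and 628 CPM. Cells with 3 or more oligodendrocyte markers were 3 of 29 and 0 of 31 Fos-positive cells and 16 of 78 and 3 of 17 Fos-negative cells on plates 2 and 3. Mbp, a major myelin protein gene, was detected in 8 of 60 and 28 of 95 cells, with log2 ratios of -1.20 and -2.76. Of the 10 oligodendrocyte markers 3 passed, and Mbp was the one lower on both plates. Cnp, another myelin gene, had log2 ratios of -0.20 and 0.51, and the median over the 3 was 0.14. Cells with 3 or more neuron markers were 4 of 29 and 9 of 31 against 10 of 78 and 2 of 17, and Tubb3 was past 2-fold lower, from 7 and 11 cells. Cells with 3 or more markers were 0 in both groups for microglia, smooth muscle, fibroblasts, choroid plexus and oligodendrocyte precursors. Endothelial markers gave 2 such cells (Fos-positive, plate 3), pericyte markers 1 on each plate in Fos-positive cells and 1 on plate 2 in Fos-negative cells, and ependymal markers 1 Fos-negative cell. The part of oligodendrocyte RNA in the Fos split was not tested.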

How the data were processed

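The data are Smart-seq2 libraries of 250 sorted single cells of mouse brain. The authors deposited whole-number read counts per gene and cell, not normalized, and a second table with a score per gene and cell, the count scaled to a total of 500000 and rounded (100% of entries were equal to this). STAR 2.4.2a and build mm10 are named, per the submitters' processing notes. The sources used here do not give the counter, its strand setting, the annotation, the cell filter or the sort gate, so overlapping and antisense genes cannot be told apart. There were 0 pairs of identical cells, and no cell was removed.

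CPM was the count divided by the cell's total (102161 to 564958 reads). Log2 ratios of mean CPM + 1 were taken within plates and averaged with equal weight. Genes entered with a mean of at least 5 CPM over all cells of each plate, Fos-positive ones included. Calls are descriptions, with no test, because cells of unknown animals are not replicates. Shares carry exact Clopper-Pearson and sums exact Poisson 95% intervals, which cover counting error only. Thinning drew 100000 reads per cell. The 25 gene lists hold 345 genes. The text names Fos, list members and up to 12 genes called in each direction; others are said to be chosen after values were seen. Not every list member is reported here. The members and lists were chosen with earlier results of these data known. Positions are GENCODE M21 on GRCm38, and promoters are from RefSeq GRCm38.p6. The contrast was checked on simulated data, with changes larger than 2-fold planted in genes well above the filter. That check does not cover 2-fold changes or genes near the filter. Python 3.11.15, numpy 2.4.6, pandas 2.3.3 and scipy 1.17.1 were used. Alternatives covered the Fos limit, depth, plates, pseudocount, filter, total, single cells and other-type cells.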

Additional observations from a re-analysis of the deposited data

How the results depend on the processing

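No paired analysis was possible because the cells form 1 group and are split by a measured level. The number of genes called depended on the settings: the 9 higher and 3 lower became 1 and 22 with Fos-positive cells at 50 CPM or more, and 75 and 0 at 1 read or more. They were 255 and 606 with plates pooled, 131 and 904 on plate 2 alone, 436 and 63 on plate 3 alone, 397 and 469 with no condition on single cells, and 57 and 17 with means of log2(CPM + 1). Genes lower were 19 with reads thinned before the split, 1 in cells of 200000 to 400000 reads and 5 without the cell of highest Fos. Immediate early genes higher went from 0 to 2 on plate 3 alone, 3 with no condition on single cells, and 2 when that cell was also left out. Their median ratio of 0.07 was -0.14 at 50 CPM and 0.27 in cells of 200000 to 400000 reads. The positive share of 24.0% was 8.00% at 50 CPM, 62.0% at 1 read and 42.4% at any read of 100000. The gap in genes detected, 104.5, was 94.2 without the cell of highest Fos, 105.8 thinned with the groups kept, and -3 when the groups were also redrawn on the thinned reads. The gap in other immediate early genes per cell, 1, was 1.5 thinned with the groups kept. For the 12 called genes, 49 of 156 values moved by more than the spread between plates, and Lpin2 turned at 50 CPM (-0.20). Values of plate 2 alone and plate 3 alone count among the 156 but lie inside that spread by construction. Direction on single plates is also fixed by the call and supports nothing. The Pfkfb3 gap in share, 37.1 points as the mean of the plates, was 50.8 at 50 CPM, 32.2 thinned, 38.8 in cells of 200000 to 400000 reads, 44.1 without cells with 3 markers of another type and 36.6 without the cell of highest Fos, alternatives added after values were seen. Its log2 ratio of 1.84 was 0.96 with reads thinned before the split. Depth limits the split itself, since 10 CPM is 1.02 to 5.65 reads, and plate 3 has 17 Fos-negative cells, 7 of them at 200000 to 400000 reads.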

Other observations

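The genes next after Pfkfb3 by the smaller plate gap in detection were Nucb1, Ltbp1 and Slc12a9, all chosen after their values were seen. Nucb1, a calcium-binding protein of the Golgi, was detected in 53.3% of Fos-positive, 37.9% of between and 24.2% of Fos-negative cells. Ltbp1, which binds latent TGF-beta in the matrix, was detected in 28.3%, 15.8% and 5.26%. At the other end, Rreb1, a zinc finger factor of the Ras response, was detected in 15.0%, 25.3% and 36.8%, and Psmc3, a proteasome ATPase, in 26.7%, 38.9% and 48.4%. Slc12a9 was detected in 51.7%, 32.6% and 35.8%, so the between cells were lowest there with the plates pooled. By plate, its shares were 62.1%, 32.7% and 39.7% on plate 2 and 41.9%, 32.5% and 17.6% on plate 3. Among other genes at the low end, Eif1, a translation initiation factor, was detected in 56.7%, 76.8% and 73.7%, and Ctcf, the insulator protein, in 13.3%, 12.6% and 30.5%. Slc12a9, Eif1 and Ctcf are named here as exceptions with the plates pooled. Most other genes at both ends had a middle share in the between cells. Gcsh, for example, had 56.7%, 38.9% and 34.7%, and Hist1h2bc had 58.3%, 65.3% and 78.9%. The genes were ranked by the gap between the outer groups, so a middle share supports nothing.

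Well position showed no clear order. Fos-positive cells were 20.2% of the wells in rows A to H and 15.4% in rows I to P on plate 2, and 32.6% and 38.1% on plate 3. Columns 1 to 12 and 13 to 24 had 15.7% and 20.3% on plate 2 and 41.9% and 28.9% on plate 3, and every interval for one part held the value of the other. Xist was detected in 0 cells of the 2 groups, and a Y-linked gene in 24 of 29 and 19 of 31 Fos-positive cells and in 66 of 78 and 13 of 17 Fos-negative cells on plates 2 and 3.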
